A study of Mus musculus with 16 samples.

Results

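Heart cells sorted for the receptor c-kit were compared with heart cells sorted for stem cell antigen 1 (Sca1), over all genes measured. These are 6 of the 16 arrays of a mouse series, 3 for each population, chosen by their labels alone. The heart c-kit arrays hold cells sorted from the heart for c-kit, with no other gate named. The heart Sca1 arrays hold cells sorted from the heart for Sca1 that lacked CD45, an antigen of leukocytes, and CD31, an antigen of endothelial cells. Both populations came from C57BL/6 mice with a genotype given as Normal, and the labels give no age, sex or treatment. The labels name a Matrigel surface and mTeSR, a serum-free medium made for pluripotent stem cells, for every sample of the series, so they do not tell which sorted cells were cultured before lysis, if any. Nor do they say whether replicates came from separate animals. A p-value here sets a difference against the spread between arrays of the same population, pooled over all 16 arrays. Part of that spread may be technical. The other 10 arrays, used here for the estimate of spread and for side by side levels, hold heart side population cells (2), cardiomyocytes (2), bone marrow c-kit cells (3) and bone marrow mesenchymal stem cells (3).

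The receptor tyrosine kinase c-kit binds stem cell factor and is carried by haematopoietic progenitors, mast cells, melanocytes and some endothelial cells. In the heart it has been used to sort candidate progenitors. Sca1 is a membrane-anchored protein of the Ly6 family, found in the mouse on haematopoietic stem cells, on endothelial cells and on stromal cells of many organs. After leukocytes and endothelial cells are gated away, the Sca1 cells of the mouse heart are known to be rich in fibroblast-like stromal cells, which build the collagen matrix of the organ.

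Values are log2 Cy5 spot intensities, brought to a common scale by quantile normalisation, on which the mean of an array is close to 0. A log2 difference is heart c-kit minus heart Sca1, with its SE from a limma model of all 16 arrays, and genes with an adjusted p under 0.05 were called. The median spot intensity, before any scaling, was 121, 18 and 45 on heart c-kit replicates 1, 2 and 3, against 100, 107 and 109 on the heart Sca1 arrays. Each array carried a single repeated value, read here as a fill for unusable spots, at 4.02% to 13.7% of probes on the heart c-kit arrays and 7.54% to 9.01% on the heart Sca1 arrays. Across genes, which are not independent replicates, the Pearson correlation was 0.791 to 0.805 between heart c-kit arrays, 0.910 to 0.917 between heart Sca1 arrays and 0.706 to 0.805 between arrays of different populations. Heart c-kit arrays were thus less alike than heart Sca1 arrays.

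Heart Sca1 replicate 3 stood apart from the other heart Sca1 arrays in genes of endothelial cells and macrophages. The mean level of 25 endothelial genes was 4.81, 4.94 and 4.6 on the heart c-kit arrays, against 1.30, 1.98 and 4.83 on the heart Sca1 arrays. For 20 macrophage and monocyte genes it was 1.24, 1.26 and 0.93 on the heart c-kit arrays, against -0.38, -0.37 and 2.75 on the heart Sca1 arrays. Replicate 3 thus reached or passed the heart c-kit arrays in both lists, against its label of a sort without CD45 and CD31. In 27 fibroblast and matrix genes it did not stand apart: the mean level was 1.44, 0.96 and 2.15 on the heart c-kit arrays, against 6.39, 6.47 and 6.33 on the heart Sca1 arrays. Counts of endothelial and blood cell genes are given with and without this array.

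The genes of the sort were read next. Kit, the gene of c-kit, stood at 2.13, 5.04 and 3.83 on the heart c-kit arrays, against -1.82, -3.18 and 0.28 on the heart Sca1 arrays. As spot intensities these were 301, 2439 and 1420 in heart c-kit cells, against 21, 10 and 145 in heart Sca1 cells. Every heart c-kit array lay above every heart Sca1 array, and the difference was 5.24 ± 0.87 (SE; limma adjusted p = 0.00169), or 37.8-fold. Sca1 is encoded by Ly6a, not analysed here. Ptprc, the gene of CD45, stood at 2.88, 5.17 and 3.99 in heart c-kit cells, against 0.40, -0.89 and 2.94 in heart Sca1 cells, where replicate 3 overlapped the heart c-kit range. Its difference was 3.20 ± 0.94 (adjusted p = 0.0422), but the probes of the gene disagreed, at 3.20 and -1.44, and the call held in 7 of 18 other settings. Pecam1, the gene of CD31, stood at 4.59, 7.57 and 5.90 in heart c-kit cells, against 1.57, 3.39 and 5.38 in heart Sca1 cells. The groups overlapped and the gene was not called (2.57 ± 1.12, adjusted p = 0.157). Abcg2, a transporter that exports the Hoechst dye, was not called either (1.08 ± 0.78, adjusted p = 0.391).

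Heart Sca1 cells carried the matrix markers. Dkk3, a secreted member of the Dickkopf family, gave spot intensities of 14, 2 and 6 in heart c-kit cells, against 11172, 15829 and 10058 in heart Sca1 cells. On the normalised scale it stood at -4.09, -3.65 and -2.83 in heart c-kit cells, against 6.60, 7.13 and 6.70 in heart Sca1 cells. The groups were far apart, with a difference of -10.33 ± 0.74 (adjusted p = 2.14e-06). Col6a1, a chain of collagen VI, stood at 1.28, 0.05 and 0.51 in heart c-kit cells, against 6.85, 7.27 and 6.76 in heart Sca1 cells. It was 81.3-fold lower in heart c-kit cells, a log2 difference of -6.35 ± 0.55 (adjusted p = 1.17e-05). Dkk3 and Col6a1 were named as markers with earlier results of these data known and are no check of the Sca1 label.

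Over all genes, 1966 of 17710 were called, or 11.1%. Heart c-kit cells were higher in 582 of them (3.29% of genes tested) and lower in 1384 (7.81%). The changes were larger on the lower side: the median log2 difference was 2.83 among genes called higher and -4.26 among genes called lower, against 0.23 over all genes. A log2 difference above 4 was called for 110 genes and one below -4 for 767. The 3 heart c-kit arrays did not overlap the 3 heart Sca1 arrays in 32.7% of genes, and 10.9% were both called and without overlap. Of the 1384 genes called lower, 437 had a heart c-kit array at or below its fill value, a larger share than the 3661 of all 17710 genes. Of the 582 called higher, 94 had such a heart Sca1 array, close to the share of all genes (2791 of 17710). The part of low signal in the calls was not tested beyond the settings given here. With genes at or below the fill value on any of the 6 arrays left out, a setting added after the data were seen, 1666 genes were called. With only the 6 arrays fitted 780 genes were called, and with heart Sca1 replicate 3 then left out 206. The size of a difference that rests on a spot near the fill value is uncertain.

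**Figure D1:**
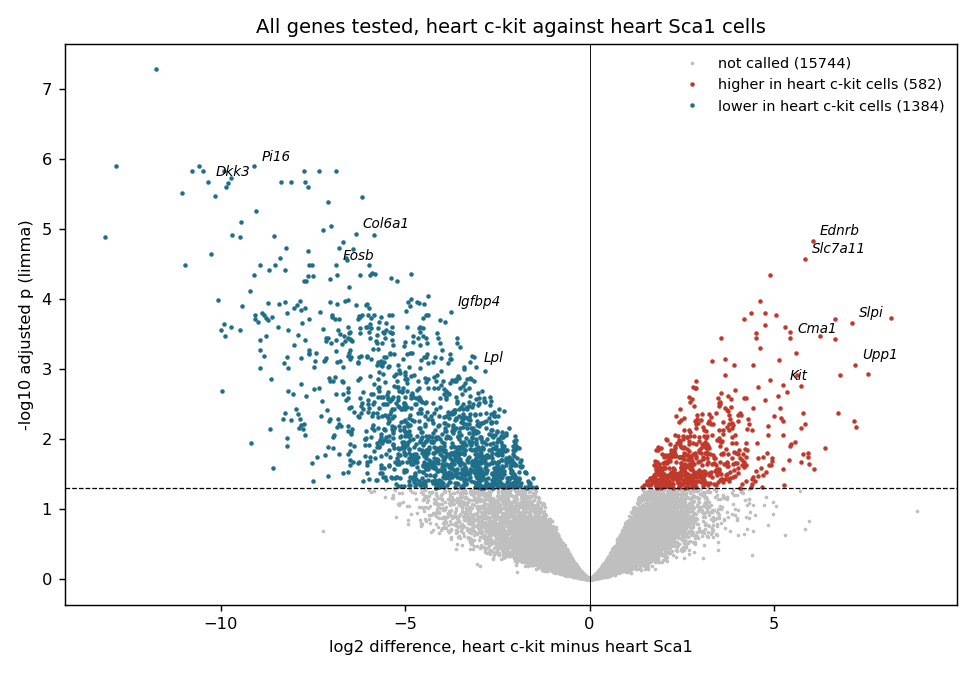
The log2 difference of heart c-kit minus heart Sca1 cells (horizontal axis) against the −log10 adjusted p from limma (vertical axis), with 1 point for each of 17710 genes. Genes above the dashed line, an adjusted p of 0.05, are coloured, 582 to the right (higher in heart c-kit cells) and 1384 to the left, and the left side reaches farther from 0.

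Genes were then ranked among those called whose arrays did not overlap and of which no array was exactly at its fill value. The 12 largest rises in heart c-kit cells were of several kinds. Upp1, uridine phosphorylase, stood at 4.26, 5.03 and 4.88 in heart c-kit cells, against -3.63, -3.18 and -0.58 in heart Sca1 cells (7.19 ± 1.10, adjusted p = 0.000864), though another probe of the gene gave 1.28. Slpi, a secreted inhibitor of leukocyte proteases, stood at 4.88, 6.17 and 5.17 in heart c-kit cells, against -3.21, -1.84 and -0.08 in heart Sca1 cells (7.12 ± 0.90, adjusted p = 0.00022). In both genes each heart c-kit array lay more than 4 log2 units above each heart Sca1 array. Ctla2b and Ctla2a, near-identical inhibitors of cysteine proteases whose probes may share signal, rose by 6.80 ± 1.08 and 6.25 ± 0.84. Ednrb, the endothelin receptor type B, stood at 6.76, 7.34 and 7.07 in heart c-kit cells, against 0.62, 0.32 and 2.09 in heart Sca1 cells. It had the smallest SE of these 12 genes (6.05 ± 0.54, adjusted p = 1.48e-05).

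Cxcr4, the receptor of the chemokine Cxcl12, stood at 7.63, 7.59 and 6.98 in heart c-kit cells, against -1.86, 2.71 and 3.82 in heart Sca1 cells (5.85 ± 1.19, adjusted p = 0.00614). Its heart c-kit arrays were alike and its heart Sca1 arrays were spread widely. The gene of its ligand Cxcl12 was not called (0.88). The chemokine gene Ccl5 rose by 5.78 ± 1.39 and Tnfrsf10b, a death receptor of the ligand TRAIL, by 5.74 ± 1.18. N4bp3, a binding partner of the ubiquitin ligase Nedd4, rose by 5.73 ± 0.96 and Ampd3, an AMP deaminase, by 5.61 ± 0.81. The remaining pair of the 12 genes, Gsta4 and Slc7a11, belongs to the Nrf2 targets described further on.

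The 12 largest falls of that ranking included Dkk3 and were led by Dpep1, a membrane dipeptidase. It stood at -2.34, -2.64 and -2.83 in heart c-kit cells, against 8.54, 8.27 and 7.72 in heart Sca1 cells (-10.78 ± 0.73, adjusted p = 1.48e-06). Pla1a, a phospholipase that acts on phosphatidylserine, stood at -3.13, -2.64 and -3.05 in heart c-kit cells, against 7.70, 7.70 and 7.21 in heart Sca1 cells (-10.48 ± 0.72). Both were bright on all heart Sca1 arrays and dim on all heart c-kit arrays. Pi16, a secreted protein that marks stromal cells of the adventitia, stood at 0.26, -0.71 and -1.40 in heart c-kit cells, against 8.70, 8.51 and 8.24 in heart Sca1 cells (-9.10 ± 0.57, adjusted p = 1.29e-06). Cd248, or endosialin, a surface protein of fibroblasts and pericytes, stood at 1.13, -6.30 and -1.14 in heart c-kit cells, against 7.78, 7.88 and 7.67 in heart Sca1 cells (-9.88 ± 1.33). Its lowest value, like those of Pdgfrl, Crispld2, Inmt, Plxdc2 and Col6a3, was at or below the fill value of 1 heart c-kit array, so the size and rank of these 6 falls rest on background. After values under the 30th percentile were raised to it, these 6 differences were -8.79 to -7.62. Most of the other falls also had dim heart c-kit spots and shrank in that setting. Dpep1 was then at -10.45, Pla1a at -9.81, Dkk3 at -9.085, Htra3 at -8.74 and Steap4 at -8.42, while Pi16 stayed at -9.10.

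Among those, Pdgfrl, a protein related to the PDGF receptors, fell by 10.27. Crispld2, a secreted protein, stood at 0.94, -6.30 and -0.48 in heart c-kit cells, against 7.86, 8.29 and 8.02 in heart Sca1 cells (adjusted p = 0.000282). The methyltransferase gene Inmt (-9.47), the plexin-domain gene Plxdc2 (-9.43) and Col6a3 (-9.11), a chain of collagen VI, fell as well. So did the serine protease gene Htra3 (-9.71) and the metalloreductase gene Steap4 (-9.05), with no array at the fill value. Their heart c-kit spots were still dim, at 7, 12 and 11 for Htra3 and 57, 7 and 2 for Steap4. Of the 12 genes that rose, Gsta4 and Ccl5 held in the fewest of the 18 other settings, at 10 and 14.

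**Figure D2:**
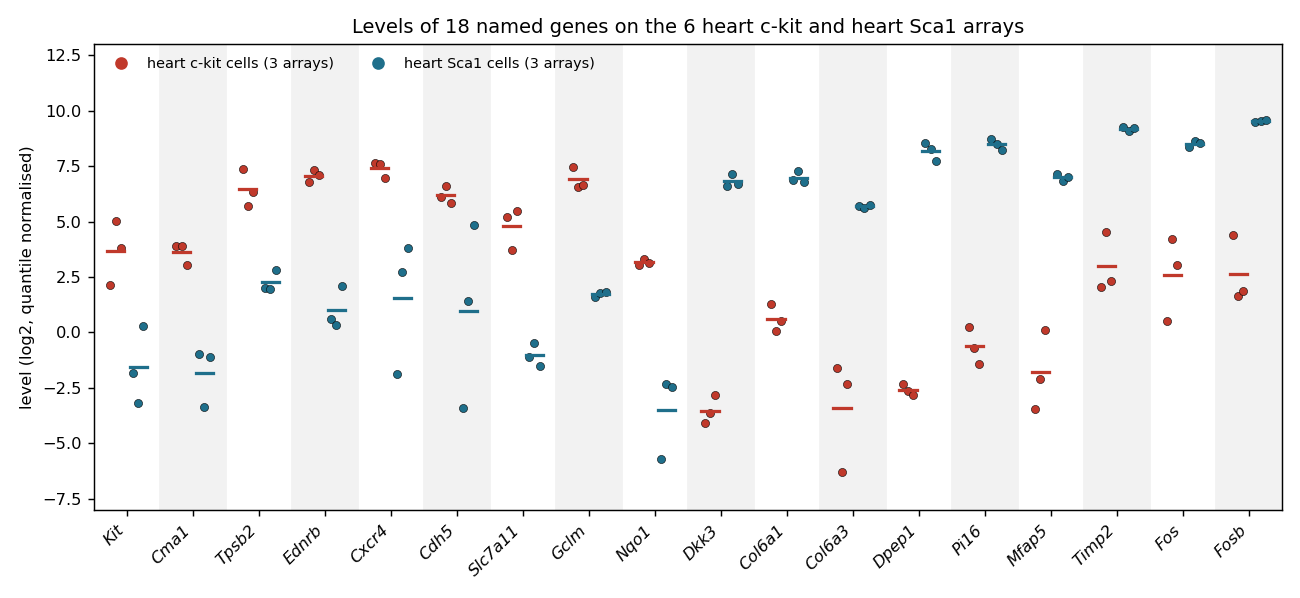
Normalised log2 level (vertical axis) of 18 named genes (columns) on each heart c-kit array (red, left in a column) and each heart Sca1 array (blue, right), with the mean of 3 as a bar. Kit lies at 2.13 to 5.04 in heart c-kit cells, above all heart Sca1 arrays, whereas Dkk3 lies between -4.09 and -2.83 in heart c-kit cells and above 6 in heart Sca1 cells.

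Fibrillar collagens, elastic fibre proteins and small proteoglycans make up the interstitial matrix of the heart and come mainly from fibroblasts. Of 27 measured genes of the fibroblast and matrix list, 22 were lower in heart c-kit cells and 1 was higher, against 7.81% and 3.29% of all genes, and the list median was -5.30 against 0.23. With only the 6 arrays fitted 17 were lower, and with heart Sca1 replicate 3 then left out as well, 5. In bulk samples, fewer cells of a type and less RNA per cell cannot be told apart. This list and those below were written with earlier results of these data known. Their counts beside the shares of all genes are descriptions and no test of a list.

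In the main setting collagens of the interstitial matrix showed the largest falls of this list. Mfap5, a microfibril protein, stood at -3.44, -2.08 and 0.13 in heart c-kit cells, against 7.14, 6.82 and 7.0 in heart Sca1 cells (-8.78 ± 1.08, adjusted p = 0.000186). Col5a1, a chain of collagen V, stood at -6.0, -5.10 and -5.41 in heart c-kit cells, against 4.24, 4.40 and 4.24 in heart Sca1 cells (-9.80 ± 0.72). Col3a1, the chain of collagen III, stood at -5.02, -5.10 and -5.41 in heart c-kit cells, against 4.91, 4.63 and 4.07 in heart Sca1 cells (-9.71 ± 0.68). Both collagen genes were at the fill value on 2 heart c-kit arrays. Col1a2 fell by 6.55 ± 0.76 and the elastin gene Eln by 7.02, as did the collagen binders Lum (-5.68) and Dcn (-3.57) and the receptor Pdgfrb (-5.53).

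Not every matrix gene went that way. Tnc, or tenascin C, a matrix glycoprotein of injured and developing tissue, rose by 3.02. Col1a1, the partner chain of Col1a2 in collagen I, had a difference of 1.36 and was not called. Sparc (0.16), the fibronectin gene Fn1 (-0.75) and Pdgfra (-2.58), a receptor often used to mark cardiac fibroblasts, were not called either. The probes of the cross-linking enzyme gene Loxl1, called at -5.36, disagreed, with 0.28 on another. Thy1 was not analysed here.

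Basement membranes are the thin sheets of laminin and collagen IV under endothelium and around muscle cells. Of 17 such genes 8 were lower and 0 higher, against 7.81% and 3.29% of all genes, with a median of -2.10. The falls were in Col4a5 (-7.72), Col4a3 (-7.63), Lama2 (-6.54), Col15a1 (-4.88), Lamb2 (-4.10), Col4a4 (-3.31), Lamc1 (-2.49) and Agrn (-2.10). Lama2, the laminin chain of muscle, stood at -0.13, 0.66 and 4.35 in heart c-kit cells, against 8.28, 8.29 and 7.93 in heart Sca1 cells (adjusted p = 0.000366). Heart c-kit replicate 3 was nearest to the heart Sca1 arrays. The most abundant type IV chains of blood vessels, Col4a1 (-0.03) and Col4a2 (-0.20), were not called, and neither was Lama5 (3.58). With medians aligned or with only the 6 arrays fitted 6 of the list were lower, and 1 in the latter fit without heart Sca1 replicate 3.

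Matrix proteases and their inhibitors gave 11 of 25 genes lower and 2 higher, against 7.81% and 3.29% of all genes, with a median of -1.76. Mmp23, a membrane-bound metalloproteinase, stood at -2.08, -2.35 and -0.75 in heart c-kit cells, against 6.33, 6.45 and 6.31 in heart Sca1 cells (-8.09 ± 0.58, adjusted p = 2.14e-06). Adamts5, which cleaves aggrecan and versican, fell by 8.83 ± 1.30 with 2 heart c-kit arrays at the fill value. Timp2, an inhibitor of metalloproteinases, stood at 2.05, 4.55 and 2.34 in heart c-kit cells, against 9.28, 9.06 and 9.23 in heart Sca1 cells (-6.21 ± 0.64), and 1 heart Sca1 spot was near the upper limit of the scanner. In contrast Mmp10, stromelysin 2, rose by 6.72 ± 1.28, with 2 heart Sca1 arrays at the fill value, and Plaur, the urokinase receptor, rose by 3.75. Mmp2 (-4.08) and Timp3 (-3.72) fell. With medians aligned in place of quantile normalisation, and also with only the 6 arrays fitted, 6 genes were lower. The latter fit without heart Sca1 replicate 3 gave 3.

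**Figure D3:**
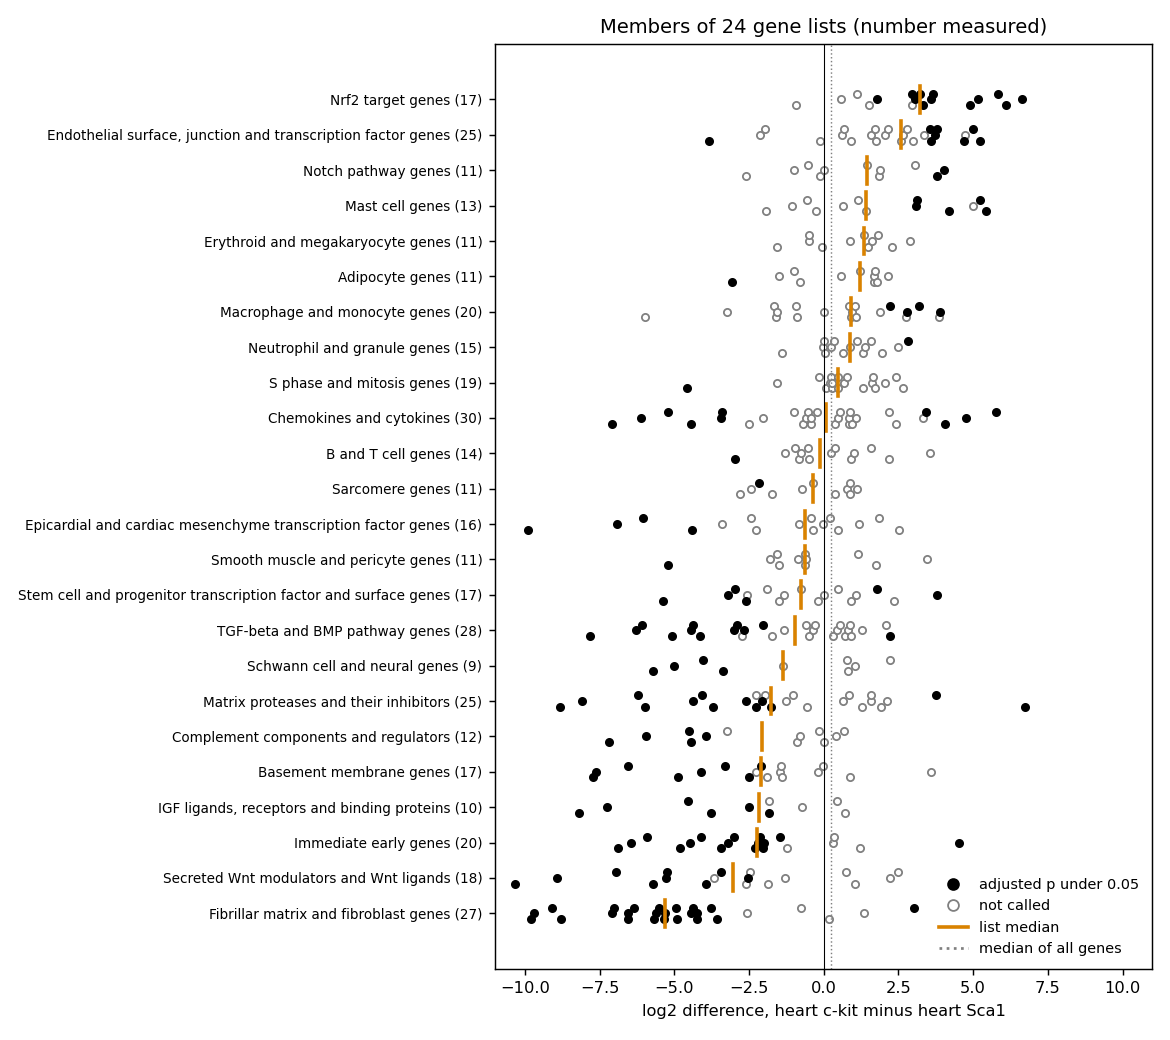
The log2 difference of heart c-kit minus heart Sca1 cells (horizontal axis) for each measured member of 24 gene lists (rows, with the number measured), filled where the gene was called, with the list median as an orange bar and the median of all genes, 0.23, as a dotted line. The Nrf2 targets have the highest median, 3.23, and the fibroblast and matrix genes the lowest, -5.30.

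Secreted regulators of Wnt signalling tune how strongly a cell sees Wnt ligands: the Sfrp proteins and Frzb bind the ligands, the R-spondins raise the number of Wnt receptors at the cell surface, and the Dickkopf proteins Dkk1 and Dkk2 act on a co-receptor. Of 18 genes of such regulators and of Wnt ligands, 9 were lower in heart c-kit cells and 0 higher, against 7.81% and 3.29% of all genes (median -3.02). Sfrp2 stood at 4.06, -3.65 and -1.97 in heart c-kit cells, against 8.56, 8.46 and 8.25 in heart Sca1 cells (-8.94 ± 1.39, adjusted p = 0.000984). Sfrp1 stood at 3.78, 1.69 and -0.70 in heart c-kit cells, against 7.21, 7.47 and 7.28 in heart Sca1 cells (-5.73 ± 1.01). For both, heart c-kit arrays were spread widely below a narrow heart Sca1 range. Rspo1 (-6.95, with 2 heart c-kit arrays at or below the fill value), Rspo3 (-5.26) and Frzb (-3.93) also fell. Of the ligands, Wnt2 (-5.24), Wnt9a (-3.45) and Wnt5b (-2.54) were lower, and Wnt5a (-2.59), Wnt11 (-3.67) and Wnt4 (2.20) were not called. Dkk1 (0.73) and Dkk2 (-1.87) were not called, unlike Dkk3. Nor were Sfrp5 (2.49), Rspo2 (1.06), Sfrp4 (-2.45) and Wif1 (-1.30). With medians aligned 6 of the list were lower, with only the 6 arrays fitted 7, and with heart Sca1 replicate 3 then left out 1.

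Insulin-like growth factors and their binding proteins were lower in 6 of 10 genes and higher in 0, against 7.81% and 3.29% of all genes (median -2.18). With medians aligned 3 were lower, with only the 6 arrays fitted 5, and with heart Sca1 replicate 3 then left out 1. Igf1 stood at -4.02, -5.10 and -3.36 in heart c-kit cells, against 4.19, 3.88 and 4.07 in heart Sca1 cells, with 1 heart c-kit array at the fill value (-8.21 ± 1.88, adjusted p = 0.0124). The binding protein gene Igfbp6 stood at -0.40, -3.65 and 0.75 in heart c-kit cells, against 6.33, 6.10 and 5.99 in heart Sca1 cells (-7.24 ± 0.94). The groups did not overlap in either gene. Igfbp5 (-4.55 ± 0.82) and Igfbp3 (-2.52) fell, and so did Igfbp4 (-3.76 ± 0.45), for which all 3 heart Sca1 spots were near the scanner limit. Igfbp7 (-0.73) and Igf2 (0.46) were not called.

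In the TGF-beta and BMP pathway 11 of 28 genes were lower and 1 was higher, against 7.81% and 3.29% of all genes (median -0.96). Among ligands, Tgfb3 stood at 1.55, -1.36 and 2.00 in heart c-kit cells, against 7.26, 7.04 and 6.76 in heart Sca1 cells (-6.29 ± 0.78, adjusted p = 0.000191). Tgfb2 fell by 7.81 ± 1.59, with probes at -7.81 and -2.92, whereas Tgfb1 (0.30), Bmp2 (0.45) and Bmp4 (0.86) were not called. Inhba, which encodes a subunit of activin, was the gene that rose (2.21). Among proteins that hold or block ligands outside the cell, Ltbp3 (-6.08), Bmper (-5.07), Ltbp2 (-4.45) and Grem1 (-4.37) fell. The receptor genes Tgfbr3 (-4.14), Acvrl1 (-3.00) and Tgfbr2 (-2.67) were lower and Tgfbr1 (-0.37) was not called. With medians aligned or with only the 6 arrays fitted 6 genes were lower, and without heart Sca1 replicate 1, 7. The fit of the 6 arrays without heart Sca1 replicate 3 called 0 of the list.

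Endothelial cells line vessels and share a set of junction proteins, receptors and transcription factors. Of 25 such genes 7 were higher in heart c-kit cells and 1 was lower, against 3.29% and 7.81% of all genes (median 2.57). Without heart Sca1 replicate 3 the higher genes numbered 13 and the median was 3.54. The count was smaller in other settings: with only the 6 arrays fitted it was 0, and 4 with heart Sca1 replicate 3 then left out, with array weights 1, with the deposited values 3, and without heart c-kit replicates 1 and 2 or heart Sca1 replicates 1 and 2 it was 3, 2, 2 and 2. As the heart Sca1 sort removed CD31 cells and the heart c-kit sort names no such step, the gate and the population cannot be told apart for these genes.

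Cdh5, VE-cadherin of the endothelial junction, stood at 6.11, 6.60 and 5.85 in heart c-kit cells, against -3.41, 1.43 and 4.82 in heart Sca1 cells (5.24 ± 1.40, adjusted p = 0.027). Robo4, a guidance receptor of vessels, stood at 6.14, 6.43 and 6.06 in heart c-kit cells, against 0.40, -1.73 and 5.93 in heart Sca1 cells (4.68 ± 1.42, adjusted p = 0.0485). In both genes heart Sca1 replicate 3 came close to the heart c-kit arrays. The transcription factor gene Sox18 rose by 5.01 ± 0.97 and Kdr, the VEGF receptor 2, by 3.79 ± 1.10, with heart Sca1 replicate 3 inside the heart c-kit range for Kdr. Egfl7 (3.72), Tie1 (3.60) and Esam (3.55) also rose. Ramp2, a partner of the adrenomedullin receptor, went the other way, at 4.11, 1.72 and 2.44 in heart c-kit cells, against 6.56, 6.58 and 6.70 in heart Sca1 cells (-3.85 ± 0.58, adjusted p = 0.000826). Tek (-2.12), the von Willebrand factor gene Vwf (-1.98), Flt1 (2.79) and Emcn (4.73) were not called.

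Notch signalling links neighbouring cells and is known for its part in arterial endothelium. Of 11 measured genes 2 were higher and 0 lower, against 3.29% and 7.81% of all genes. Dll4, a ligand of endothelial tip and arterial cells, stood at 3.04, 3.98 and 3.63 in heart c-kit cells, against -0.35, -1.19 and 0.81 in heart Sca1 cells (3.79 ± 0.79, adjusted p = 0.00745). Mfng, a glycosyltransferase that modifies Notch receptors, stood at 3.32, 6.16 and 4.47 in heart c-kit cells, against 0.68, -0.64 and 1.8 in heart Sca1 cells (4.03 ± 0.78). Heart c-kit arrays lay above heart Sca1 arrays in both. Jag1 (-1.0), Hes1 (1.45) and Rbpj (-2.59) were not called, and the receptor genes Notch1 to Notch4 were not analysed here. With only the 6 arrays fitted 1 of the list was higher, and 0 with heart Sca1 replicate 3 then left out.

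Mast cells carry c-kit throughout life and store proteases in their granules. Of 13 mast cell genes 5 were higher in heart c-kit cells and 0 lower, against 3.29% and 7.81% of all genes (median 1.43). Kit is itself 1 of the 5. Cma1, mast cell chymase, stood at 3.91, 3.91 and 3.04 in heart c-kit cells, against -0.96, -3.36 and -1.12 in heart Sca1 cells (5.43 ± 0.74, adjusted p = 0.000365). Tpsb2, a tryptase, stood at 7.35, 5.70 and 6.33 in heart c-kit cells, against 2.02, 1.97 and 2.80 in heart Sca1 cells (4.20 ± 0.74). Every heart c-kit array was above every heart Sca1 array in these. The carboxypeptidase gene Cpa3 rose by 3.09 and Srgn, the core of granule proteoglycans in many blood cells, by 3.10. Of the chains of the high-affinity IgE receptor, Fcer1a (-0.58) and Ms4a2 (1.14) were not called, nor was the histidine decarboxylase gene Hdc (-1.93). Fcer1g, a chain of this and other Fc receptors, was called higher (3.90) and is counted with the macrophage genes. The mean level of the list was -0.14, 0.41 and 0.74 on the heart c-kit arrays, against -2.15, -2.12 and -0.57 on the heart Sca1 arrays. Without heart Sca1 replicate 3, 5 were called and the median was 1.92. With only the 6 arrays fitted 3 were called, and 0 with that array then left out.

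Of 20 macrophage and monocyte genes 4 were higher and 0 lower, against 3.29% and 7.81% of all genes (median 0.93). The 4 were Fcer1g (3.90), a signalling chain of Fc receptors, Ptprc, Laptm5 (2.77), a lysosomal protein of blood cells, and Coro1a (2.22), an actin regulator of leukocytes. They are shared by most leukocytes. Differences were positive in 13 of the 20 genes, but the median of all genes was positive too (0.23). At an unadjusted p under 0.05, 7 were higher and 2 lower, against 4862 of 17710 genes in either direction. Genes that were not called lay on both sides of 0, among them Ctss (3.87), Cd68 (2.75), Csf1r (0.83), Adgre1 (-1.59) and Cd163 (-5.97). Without heart Sca1 replicate 3, 5 were higher with a list median of 1.5, and the difference of Ptprc was 4.26 (adjusted p = 0.0103). Without heart Sca1 replicate 1 or 2, and with only the 6 arrays fitted, 1 of the list was called higher. Of 15 neutrophil genes 1 was higher, against 3.29% of all genes. It was Elane, neutrophil elastase (2.81 ± 0.84), with dim spots of 110, 22 and 16 in heart c-kit cells, against 9, 25 and 2 in heart Sca1 cells. Its call held in 7 of 18 other settings and was lost without heart Sca1 replicate 3 (2.03, adjusted p = 0.191). Of 14 lymphoid genes 1 was lower, against 7.81% of all genes, with this array or without it. It was Ebf1, a transcription factor of B cells and also of stromal cells (-2.99 ± 0.72). None of 11 erythroid and megakaryocyte genes was called by limma, with or without heart Sca1 replicate 3. An unadjusted p under 0.05 was found for 3, close to the share of all genes (4862 of 17710). The largest differences were those of Epor (2.87) and Pf4 (2.29). The heart Sca1 sort removed CD45 cells, so here too the gate and the population cannot be told apart.

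**Figure D4:**
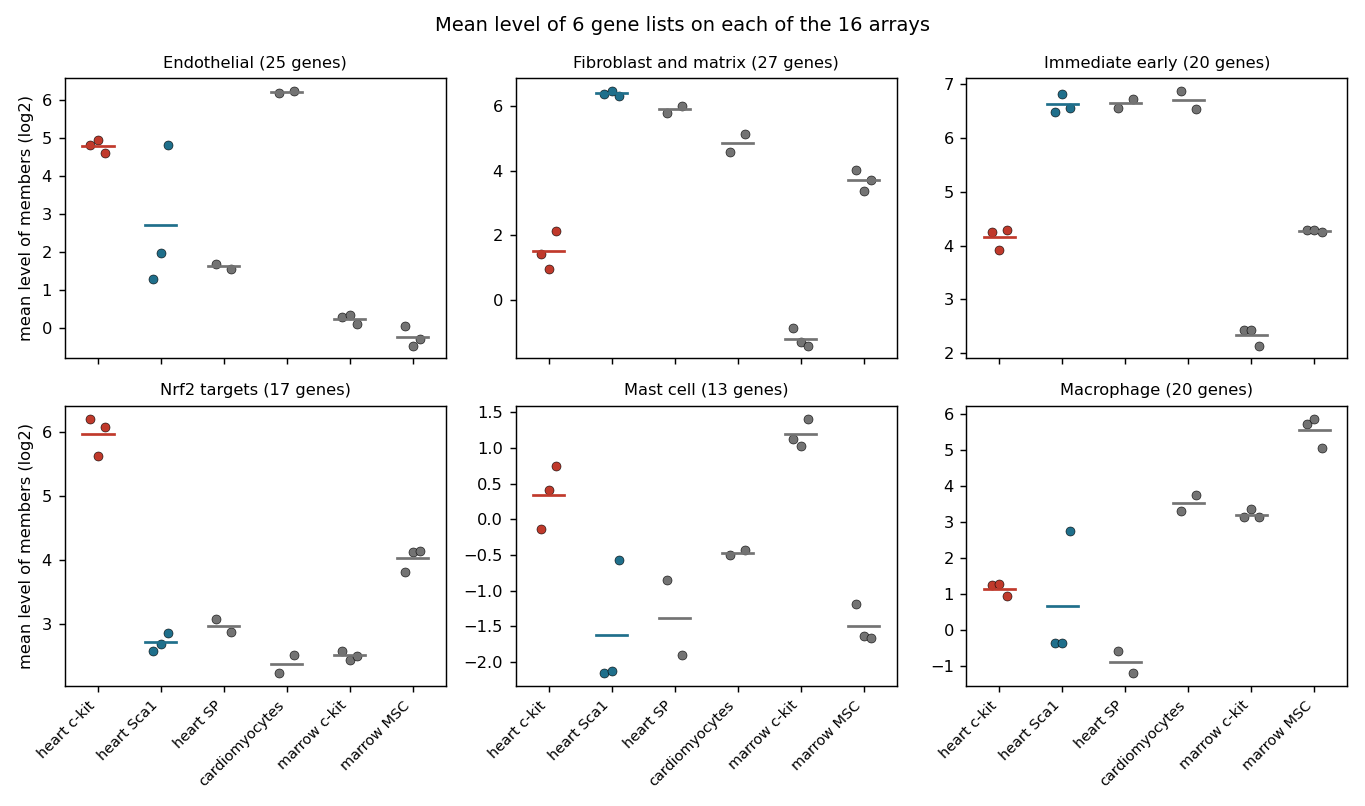
Mean normalised log2 level (vertical axis) of selected gene lists on each array, for heart c-kit cells, heart Sca1 cells and the other 4 populations. Heart Sca1 replicate 3 reaches 4.83 in the endothelial list, beside 1.30 and 1.98 on the other heart Sca1 arrays, while the Nrf2 targets lie at 5.63 to 6.22 in heart c-kit cells and at 2.58 to 2.86 in heart Sca1 cells.

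Nrf2 is a transcription factor that is held in the cytoplasm by Keap1 and released by oxidants and electrophiles. It then raises genes for glutathione synthesis, thioredoxin reduction and detoxification. Of 17 genes listed as such targets 12 were higher in heart c-kit cells and 0 lower, against 3.29% and 7.81% of all genes. The list median was 3.23. As the list was written with earlier results of these data known, the count is a description only. With only the 6 arrays fitted 10 were higher, and with heart Sca1 replicate 3 then left out, 4. The mean level of the list was 6.22, 5.63 and 6.08 on the heart c-kit arrays, against 2.58, 2.70 and 2.86 on the heart Sca1 arrays. Heart Sca1 replicate 3 did not stand apart here, and the other populations lay at 2.88 and 3.08 (side population), 2.24 and 2.52 (cardiomyocytes), 2.45 to 2.59 (marrow c-kit) and 3.81 to 4.15 (marrow mesenchymal stem cells).

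Nqo1, a quinone reductase, stood at 3.05, 3.30 and 3.14 in heart c-kit cells, against -5.69, -2.30 and -2.46 in heart Sca1 cells, with 1 heart Sca1 array at the fill value (6.65 ± 0.91, adjusted p = 0.000375). Slc7a11, which imports the cystine from which glutathione is made, stood at 5.18, 3.73 and 5.48 in heart c-kit cells, against -1.10, -0.48 and -1.53 in heart Sca1 cells (5.83 ± 0.56, adjusted p = 2.68e-05). Gclm, the regulatory subunit of the enzyme that starts glutathione synthesis, stood at 7.47, 6.57 and 6.66 in heart c-kit cells, against 1.59, 1.79 and 1.81 in heart Sca1 cells (5.17 ± 0.96). In all 3 genes the groups were separated by several log2 units. Its catalytic partner Gclc rose by 4.90 and the glutathione reductase gene Gsr by 3.66. Gsta4, a glutathione transferase for lipid aldehydes, stood at 7.02, 7.76 and 7.74 in heart c-kit cells, against 3.44, -2.69 and 3.49 in heart Sca1 cells (6.09 ± 1.62, adjusted p = 0.027), so that 1 heart Sca1 array sets much of its size. Hmox1, heme oxygenase 1, rose by 3.58, Srxn1, sulfiredoxin, by 3.23, Prdx1, a peroxiredoxin, by 3.06 and Txnrd1, thioredoxin reductase, by 1.77. Esd (3.31) and Akr1b8 (2.94) were the other listed genes called higher. The ferritin genes Fth1 (1.10) and Ftl1 (0.58) and the transferase Gstm1 (-0.92) were not called.

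Proximal promoters were read from RefSeq (GRCm38.p6) for the 250 bases before the start of a gene, where the window held none of the gene's own record. They were searched on both strands for TGACNNNGC, the core of the antioxidant response element to which Nrf2 binds, and for TGANTCA, the AP-1 element, which those letters can overlap. TGACNNNGC was present in 10.9% of 8008 genes with a window and in 1 of 9 Nrf2 targets with one, and TGANTCA in 6.22% and in 2 of 9. The windows of Prdx1 (chr4:116685349-116685598, plus strand) and Srxn1 (chr2:152105274-152105523, plus strand) are shown since they hold these letters, which are in capitals.
Prdx1: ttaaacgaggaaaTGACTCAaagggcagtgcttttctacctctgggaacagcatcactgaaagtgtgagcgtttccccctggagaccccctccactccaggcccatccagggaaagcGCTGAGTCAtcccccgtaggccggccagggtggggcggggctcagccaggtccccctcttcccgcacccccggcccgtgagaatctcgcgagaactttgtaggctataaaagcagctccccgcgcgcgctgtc
Srxn1: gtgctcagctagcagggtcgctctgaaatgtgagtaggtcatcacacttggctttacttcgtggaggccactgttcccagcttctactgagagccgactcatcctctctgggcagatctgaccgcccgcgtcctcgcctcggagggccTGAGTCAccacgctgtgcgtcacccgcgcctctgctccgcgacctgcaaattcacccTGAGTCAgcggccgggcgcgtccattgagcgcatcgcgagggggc
In Prdx1 the match to TGACNNNGC begins 133 bases before the start, on the opposite strand as GCTGAGTCA, and overlaps an AP-1 match at 131, with another AP-1 match at 237. In Srxn1 the AP-1 letters begin 102 and 45 bases before the start. A match of letters is a description and shows no binding.

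Immediate early genes are switched on within minutes by growth factors and stress, without new protein synthesis, and many encode transcription factors of the Fos, Jun, Egr and Nr4a families. Of 20 such genes 15 were lower in heart c-kit cells and 1 was higher, against 7.81% and 3.29% of all genes (median -2.25). The count of lower genes was 5 with medians aligned and 5 with only the 6 arrays fitted. It was 1 in the latter fit without heart Sca1 replicate 3, and 8 and 9 in the main fit without heart Sca1 replicates 1 and 2. The mean level of the list was 4.25, 3.92 and 4.29 on the heart c-kit arrays, against 6.48, 6.82 and 6.56 on the heart Sca1 arrays. It was 6.56 and 6.73 in side population cells, 6.87 and 6.54 in cardiomyocytes, 2.14 to 2.43 in marrow c-kit cells and 4.25 to 4.29 in marrow mesenchymal stem cells. The heart c-kit arrays were thus below the other heart populations on this scale.

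Fosb, an AP-1 subunit, stood at 4.40, 1.64 and 1.89 in heart c-kit cells, against 9.47, 9.53 and 9.59 in heart Sca1 cells, where all 3 spots were near the scanner limit (-6.89 ± 0.68, adjusted p = 3.28e-05). Fos stood at 0.51, 4.20 and 3.05 in heart c-kit cells, against 8.38, 8.63 and 8.52 in heart Sca1 cells (-5.92 ± 0.77). Egr2, a zinc finger factor, stood at 3.81, -3.65 and 3.39 in heart c-kit cells, against 7.76, 7.75 and 7.43 in heart Sca1 cells (-6.47 ± 1.38). All heart Sca1 arrays were high and alike, and heart c-kit arrays were lower and more spread. The orphan receptor genes Nr4a3 (-4.83) and Nr4a1 (-4.49), the antiproliferative gene Btg2 (-4.12), Klf4 (-3.20), Junb (-3.02), Jun (-2.29) and Egr1 (-2.14) fell, and so did Atf3 (-2.04) and Zfp36 (-1.46), whose product destabilises cytokine mRNAs. Fosl1, an AP-1 subunit that is induced later than Fos, rose by 4.52. Dusp1 (-1.23), Ier3 (0.35) and Egr3 (1.22) were not called.

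The same promoter windows were searched for TGACGTCA, the cyclic AMP response element, and for the CArG box bound by serum response factor. TGACGTCA was present in 2.12% of the 8008 genes and in 2 of 12 immediate early genes with a window, Btg2 and Dusp1. A CArG box was present in 1.36% and in 1 of 12, Zfp36. The windows of Btg2 (chr1:134079156-134079405, minus strand) and Zfp36 (chr7:28379229-28379478, minus strand) are shown as the called genes that hold them, with the match in capitals.
Btg2: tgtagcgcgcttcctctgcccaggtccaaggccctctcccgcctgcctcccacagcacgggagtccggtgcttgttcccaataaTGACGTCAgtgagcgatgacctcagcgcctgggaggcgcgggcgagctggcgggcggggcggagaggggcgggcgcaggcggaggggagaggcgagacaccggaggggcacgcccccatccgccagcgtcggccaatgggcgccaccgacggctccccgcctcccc
Zfp36: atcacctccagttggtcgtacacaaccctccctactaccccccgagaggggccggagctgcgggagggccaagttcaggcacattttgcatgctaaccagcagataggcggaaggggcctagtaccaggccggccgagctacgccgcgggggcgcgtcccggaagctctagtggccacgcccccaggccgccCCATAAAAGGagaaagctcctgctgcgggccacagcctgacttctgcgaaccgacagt
The Btg2 match begins 166 bases and the Zfp36 match 58 bases before the start of the gene.

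Chemokine and cytokine genes moved in both directions, with 4 of 30 higher and 6 lower, against 3.29% and 7.81% of all genes (median 0.07). Beside Ccl5, the higher genes were Il11 (4.77), Il1b (4.07) and Spp1 (3.43), which encodes osteopontin. Il6 stood at -3.24, -5.10 and 2.64 in heart c-kit cells, against 4.74, 5.66 and 5.15 in heart Sca1 cells, with 1 heart c-kit array at the fill value (-7.08 ± 1.63, adjusted p = 0.0131). Il33, an alarmin of stromal and endothelial cells, stood at -5.89, 2.82 and 2.35 in heart c-kit cells, against 5.96, 5.39 and 6.33 in heart Sca1 cells (-6.13 ± 1.78, adjusted p = 0.0398). Heart c-kit replicate 1 was far below its replicates there. Cxcl10 (-5.20), Ccl11 (-4.43), Cxcl14 (-3.45) and Ccl7 (-3.42) fell. Kitl, the gene of the ligand of c-kit, was not called (1.08). Over the settings the counts ran from 0 to 5 higher and from 0 to 6 lower, with 3 lower without heart c-kit replicate 2 and 2 higher without heart c-kit replicate 1 or heart Sca1 replicate 2.

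Of 12 complement genes 5 were lower and 0 higher, against 7.81% and 3.29% of all genes (median -2.07). The factor B gene Cfb (-7.17), the C1 inhibitor gene Serping1 (-5.96), Cd55 (-4.50), C2 (-4.44) and C3 (-3.95) fell. Serping1 stood at 3.99, -2.95 and 4.72 in heart c-kit cells, against 7.80, 8.06 and 7.78 in heart Sca1 cells (adjusted p = 0.0178). Heart c-kit replicate 2, the dimmest array, was the lowest. The C1q chain genes C1qa (-3.23), C1qb (-0.91) and C1qc (0.01), made by macrophages, were not called. Without heart Sca1 replicate 3, in which macrophage genes were high, 3 genes were lower and the median was -0.08. The count was 2 to 3 without any 1 of the other arrays except heart c-kit replicate 3. It was 2 with only the 6 arrays fitted, and 0 with heart Sca1 replicate 3 then left out.

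Epicardial and cardiac mesenchyme genes were lower in 4 of 16 cases and higher in 0, against 7.81% and 3.29% of all genes (median -0.63). Aldh1a1, a retinaldehyde dehydrogenase, stood at 0.70, -5.10 and -2.34 in heart c-kit cells, against 7.30, 7.93 and 7.72 in heart Sca1 cells, with 1 heart c-kit array at the fill value (-9.90 ± 1.26, adjusted p = 0.000232). Tcf21, a factor of the cardiac fibroblast lineage, stood at -3.44, -3.65 and 2.95 in heart c-kit cells, against 4.83, 4.83 and 4.34 in heart Sca1 cells (-6.05 ± 1.56). Heart c-kit replicate 3 lay nearest to the heart Sca1 arrays. The homeobox genes Meox1 (-6.93 ± 1.49) and Prrx1 (-4.43 ± 0.99) fell as well. Wt1 (1.19), Tbx18 (-0.84), Gata4 (0.49) and Gata6 (-0.36) were not called. With genes at the fill value left out 2 of the list were lower. With only the 6 arrays fitted 1 was lower, and 0 with heart Sca1 replicate 3 then left out.

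Among 17 stem cell and progenitor genes 2 were higher, Kdr and the hyaluronan receptor Cd44 (1.77), and 4 were lower, Hand2 (-5.37 ± 1.12), Klf4, Mef2c (-2.97 ± 0.57) and Vcam1 (-2.59). The shares over all genes were 3.29% higher and 7.81% lower. Hand2 and Mef2c are transcription factors of heart development. Mef2c stood at 0.03, 2.16 and 1.12 in heart c-kit cells, against 4.08, 4.18 and 3.98 in heart Sca1 cells. The cardiac progenitor gene Isl1 (2.36), Tbx5 (-0.75) and the pluripotency genes Pou5f1 (-1.33), Sox2 (0.01) and Lin28a (-0.18) were not called. Counts were 0 to 2 higher and 0 to 5 lower over the settings.

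Sarcomere genes were measured in part, and 1 of 11 was lower, close to the 7.81% of all genes. It was Actn2 (-2.17 ± 0.64), called in 8 of 18 other settings. The list median was -0.37, and 0.07 with medians aligned. Cardiomyocyte arrays had a mean level of 5.16 and 5.31 in this list, against 2.21, 1.04 and 1.60 in heart c-kit cells and 1.68, 2.48 and 2.40 in heart Sca1 cells. Of 11 smooth muscle and pericyte genes 1 was lower, again close to 7.81%, the actin gene Acta2 (-5.20 ± 0.87), whose probes gave -5.20 and -0.11. Tagln (3.44), Des (-1.79) and Rgs5 (-1.51) were not called.

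The genes that parted the populations were placed beside the other 4 populations as levels only. Genes called higher in heart c-kit cells had a median level of 3.50 in heart c-kit cells and -0.11 in heart Sca1 cells, and 0.76, 1.24, 1.73 and 1.76 in side population cells, cardiomyocytes, marrow c-kit cells and marrow mesenchymal stem cells. Those called lower had a median level of -1.01 in heart c-kit cells and 3.99 in heart Sca1 cells, and 3.16, 2.43, 0.00 and 1.84 in the same 4 populations. The genes were picked for parting the 2 heart populations, so these are extreme by selection. In the median of the lower genes, side population cells, cardiomyocytes and marrow mesenchymal stem cells lay nearer to heart Sca1 cells, and marrow c-kit cells nearer to heart c-kit cells. In that of the higher genes, side population cells and cardiomyocytes lay nearer to heart Sca1 cells, and both marrow populations lay about midway. Dpep1, for example, averaged 7.5 in side population cells and 5.52 in cardiomyocytes, but -2.93 in marrow c-kit cells and 1.12 in marrow mesenchymal stem cells. Slpi averaged 4.98 in marrow c-kit cells and -3.78 in side population cells. Upp1, Slc7a11 and Nqo1 averaged at most 2.39 in any of those 4, the value of Upp1 in cardiomyocytes.

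**Figure D5:**
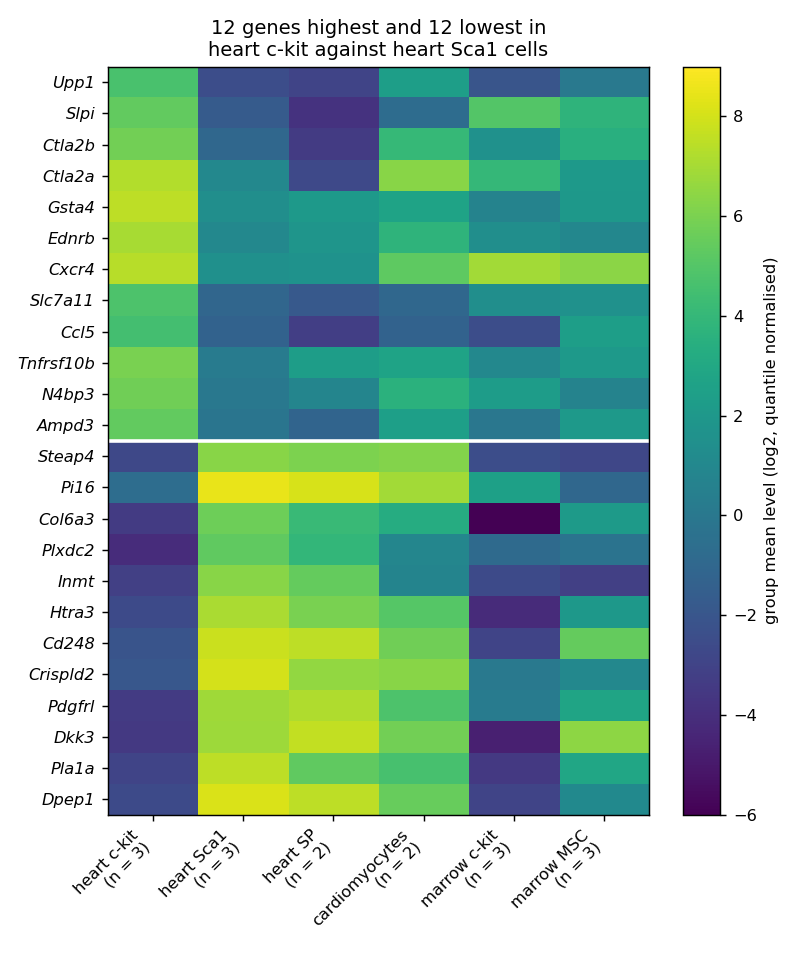
Mean normalised log2 level (colour) of the 12 genes with the largest rises and the 12 with the largest falls, in columns for heart c-kit cells (3 arrays), heart Sca1 cells (3), side population cells (2), cardiomyocytes (2), marrow c-kit cells (3) and marrow mesenchymal stem cells (3). Dkk3 averages 7.60 in side population cells and -4.70 in marrow c-kit cells, beside -3.52 in heart c-kit cells and 6.81 in heart Sca1 cells.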

How the data were processed

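The deposited table holds log2 Cy5 intensities of 26423 probes on 16 arrays, centred near 0 per array by the authors, as read from the values. Per the labels' protocols, RNA was amplified (WT-Ovation Pico) and labelled with Cy5. The sources used here do not give the background correction, scan settings or fill rule. Values were quantile normalised. Symbols matched a RefSeq table (GRCm38.p6), giving 17710 genes, with the brightest probe used for 2273 genes with several. A limma 3.58.1 model (R 4.3.3) of 6 group means gave heart c-kit minus heart Sca1, moderated by eBayes (prior df 3.81, residual df 10), and p-values were Benjamini-Hochberg adjusted over all 17710 genes. Same-numbered arrays correlated at 0.0563, 0.00134 and 0.0688 in their deviations, so numbers were not taken as pairs. Named genes were the sort genes, 12 highest and 12 lowest called genes without overlap or fill, and up to 4 called members of each of 24 lists, or the 2 largest where none was called. Others are list members, added to describe each list after values were seen. Members and lists were chosen with earlier results of these data known. In tests on simulated data of this comparison (17710 genes), 6.67%, 52.7%, 84% and 93.3% of true log2 differences of 2, 4, 6 and 8 were recovered. The closing section gives the alternatives.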

Additional observations from a re-analysis of the deposited data

How the results depend on the processing

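The count of genes called in limma, 1966 with quantile normalisation, was 780 when the 6 arrays alone were fitted (110 higher and 670 lower, with 743 among the 1966). It was 206 in that fit without heart Sca1 replicate 3, an alternative chosen after seeing the data. Leaving out 1 array at a time gave 1189 to 2537 genes, and it was 1189 without heart Sca1 replicate 1 and 1248 without heart Sca1 replicate 2. With the deposited values unscaled, 17.6% of 1547 calls were higher, against 29.6% in the main setting. Aligned medians gave 1384 (466 higher and 918 lower) and moved the median of all genes to 0.73, against 0.23. Array weights gave 1391 (260 higher and 1131 lower) and raising of low values 2526. A block for replicate number gave 1884. The numbers do not pair these arrays, so the block is given here alone. The remaining settings gave counts between 1666 and 2194. Genes called in the main setting and in another kept their direction. Of 96 named genes 92 were called, as the naming rule mostly took called genes. Of the 92, 27 kept the call in every setting that tested them, and 31 lost it when the 6 arrays alone were fitted. Median shifts of the 24 lists were within the spread in 400 and beyond it in 32 cases. The 400 include settings that changed only the estimate of spread and could not move a median. These were another moderation, the replicate block, array weights and the fit of the 6 arrays alone. The small number of arrays and dim spots limit the precision, and differences near the fill value or the scanner limit are uncertain in size.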

Other observations

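Few genes of cell division were called. Of 19 S phase and mitosis genes limma called 0 as higher and 1 as lower, the centromere histone gene Cenpa (-4.57 ± 0.86). The shares over all genes were 3.29% and 7.81%, and the list median was 0.47 against 0.23 over all genes. Differences were positive in 16 of the 19 genes, but the median of all genes was positive too. At an unadjusted p under 0.05, 5 were higher and 1 lower, against 4862 of 17710 genes in either direction. A lack of calls does not show that these genes were alike, since 6.67% of true log2 differences of 2 were recovered in the simulated data. Fewer genes were changed there than were called here, so that percentage may be too low for these data. Cenpa stood at -4.09, -5.10 and -1.81 in heart c-kit cells, against 0.55, 0.14 and 2.01 in heart Sca1 cells, with 1 heart c-kit array at the fill value. The proliferation antigen gene Mki67 (-1.55), Top2a (0.22) and the replication helicase genes Mcm2 (2.64) and Mcm5 (2.43) were not called.

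Of 9 Schwann cell and neural genes 4 were lower and 0 higher, against 7.81% and 3.29% of all genes. The myelin gene Pmp22 stood at 0.54, 4.06 and 3.12 in heart c-kit cells, against 7.51, 7.69 and 7.49 in heart Sca1 cells (-5.0 ± 0.79, adjusted p = 0.00112), and S100b (-4.05) and the adhesion gene Ncam1 (-3.39) fell. Cdh19 was at the fill value on all 3 heart c-kit arrays and is given no fold. Sox10 (0.83), the defining factor of Schwann cells, was not called, and Pmp22 is known to be made by fibroblasts as well. Of 11 adipocyte genes 1 was lower, close to the 7.81% of all genes. It was Lpl, lipoprotein lipase (-3.08 ± 0.48). The adipocyte genes Adipoq (1.20), Plin1 (1.70) and Pparg (1.79) were not called.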
